A study of Oryza sativa with 6 samples.

Results

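Rice roots were profiled after 24 h in ferulic acid (FA), the long exposure of the study, on 3 two-colour Agilent arrays out of 6 in the series. The 3 arrays were chosen by their sample titles, which name long FA exposure and replicates 1 to 3. Each array set root RNA of 6-day-old seedlings of cultivar TN-67 given 50 ppm FA (red dye, Cy5) against root RNA of seedlings of the same cultivar and age given water (green dye, Cy3). The labels call the replicates biological, and the methods state that root tips were sampled. The other 3 arrays hold FA and water RNA of a short exposure at the same dose, pooled from 1 and 3 h. Both exposures share the cultivar, the seedling age, the water control and the fixed dyes, and no array swapped them, so that treatment and a dye bias of a probe cannot be told apart in a ratio against 0.

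Ferulic acid is a hydroxycinnamic acid of the phenylpropanoid pathway. It is esterified to arabinoxylan in grass cell walls and is released into soil from rice plants and straw, where it can slow the growth of rice itself. Plant cells commonly handle foreign phenolics by oxidation with cytochrome P450 enzymes, conjugation to glutathione or sugars, and export or storage by membrane transporters. Root growth in turn depends on wall loosening, on hormones such as auxin, gibberellin and ethylene, and on signalling through receptor kinases, calcium and MAP kinases.

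The array carries probes for 29689 loci of the Rice Annotation Project, and 18661 of them passed the signal filter after 24 h, which required 1 array or more with an FA or water signal of 100 or above and a ratio on 2 or more arrays. Between 73.0% and 77.3% of the probes stood well above background in the FA channel, and between 70.5% and 71.6% in the water channel. Ratios of 26003 probes correlated between the arrays at 0.76 to 0.81 (Pearson, across probes, which are not independent replicates). According to the scanner headers the 3 arrays of 24 h lie on 1 slide with 1 scan and the 3 arrays of short exposure on 2 other slides, so that slide and exposure cannot be told apart. The study's methods describe the slides as independent for each treatment, which these headers do not show for 24 h. Of 4 root markers, RCc3 (Os02g0662000) had the brightest probe, with FA signals of 107786, 103504 and 84128 against water signals of 73181, 51198 and 61209. The silicon transporter genes Lsi1 and Lsi2 were also well above background in both channels of each array, whereas the nitrate transporter gene NRT2.1 was not well above background on any. Markers of shoots were not analysed here, apart from a photosystem I subunit gene described further on.

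A locus was called raised or lowered by FA at an adjusted p under 0.1 (limma, Benjamini-Hochberg over all tested probes) and a mean ratio of at least 2-fold over the arrays. FA raised 351 of the 18661 tested loci (1.88%) and lowered 114 (0.611%). At the level of probes, 446 of 27068 were raised (1.65%) and 143 lowered (0.528%), and 56.9% had an adjusted p under 0.1 at any size. Roots are mixtures of cells, and fewer cells of a type and less RNA per cell cannot be told apart in these values. The median log2 ratio was 1.40 in the raised loci (2.64-fold) and -1.29 in the lowered loci (2.45-fold). Raised loci passed 4-fold in 52 cases and lowered loci in 9. Of the raised loci 337 had a ratio above 0 on all 3 arrays, and 178 were at least 2-fold higher on each array that measured them. Among the lowered loci 109 had a ratio below 0 on all 3 arrays and 61 were at least 2-fold lower on each. Below these limits many more loci moved a little, since 27.4% of the tested loci had an adjusted p under 0.1 with a higher ratio and 30.4% with a lower one. Which of these directions was the more common depended on the scaling of the ratios, as given further on. The verbs rose and fell below are used of that limit alone, and the median over all tested loci was -0.03.

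**Figure D1:**
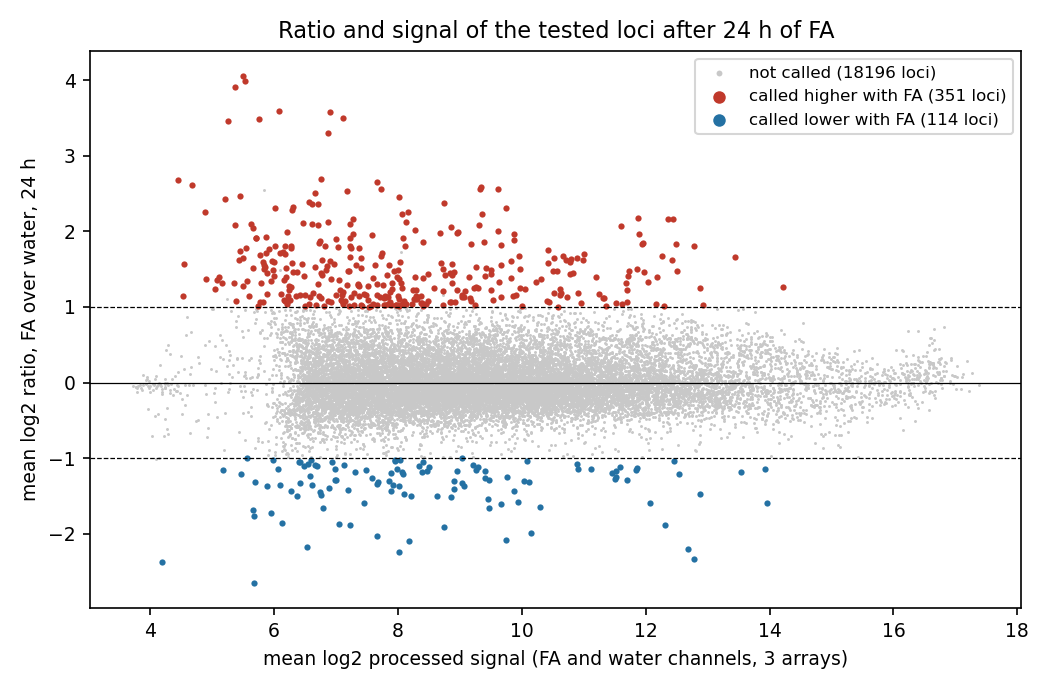
Mean log2 ratio of FA over water after 24 h (y axis) against the mean log2 processed signal of both channels (x axis) for the 18661 tested loci, 1 point per locus, with 351 called higher in red and 114 called lower in blue. Dashed lines mark 2-fold, and 23 of the raised and 2 of the lowered points had a channel above background on no array, so that their height is not a measured size.

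The 3 arrays weighted the changes differently. Raised loci had a median log2 ratio of 1.68 on the array of replicate 1, 1.37 on replicate 2 and 1.28 on replicate 3, and replicate 1 gave the largest value for 224 of the 346 raised loci measured on all 3. Lowered loci had medians of -1.28, -1.09 and -1.60, and replicate 3 gave the largest decrease for 87 of 110. The spread of a locus was moderate beside its change, with a median SD of 0.40 among raised and 0.31 among lowered loci. Where a raised locus had another tested probe, the others had the same sign in 53 of 55 loci and the same call in 39. For lowered loci the counts were 12 and 8 of 12.

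Several raised loci lie beside each other on the chromosomes. By locus number, 42 of 434 tested neighbours of raised loci (9.68%) were raised as well, against 1.88% of all tested loci, and 12 of 128 tested neighbours of lowered loci (9.38%) were lowered, against 0.611%. Such pairs include the barwin genes Os11g0592000 and Os11g0592100, metallothionein genes near Os12g0570700 and the xyloglucan endotransglucosylase genes Os02g0280200 and Os02g0280300, pairs that were picked out after their values were seen. Neighbouring copies of a gene can share signal on a probe, and that was not tested.

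The 12 largest increases with both channels measured on each array spanned mean log2 ratios of 2.22 to 2.65. They included a barwin gene, a metallothionein gene, an ABC transporter gene and a MATH domain gene, and the others lacked a description of a known protein function. The barwin gene Os11g0592000, whose domain is that of the PR4 class of defence proteins, had ratios of 2.80, 2.20 and 2.68. Its FA signals of 2335, 1345 and 1208 lay above each of the water signals of 336, 292 and 189, and the mean was 2.56 ± 0.31 (SD, n = 3, adjusted p = 0.00052, limma). The metallothionein gene Os12g0568200, which encodes a small cysteine-rich metal-binding protein, gave 2.38, 2.52 and 2.03 on the 3 arrays, with a mean of 2.31 ± 0.26. FA signals of 2678, 2648 and 1001 did not overlap water signals of 514, 461 and 246. Os10g0423900, a MATH domain gene, was raised less evenly, at 2.93, 2.02 and 1.73 with a mean of 2.22 ± 0.63. Os12g0455000, a conserved hypothetical gene, averaged 2.38 ± 0.58.

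The widest spread in this set was that of Os09g0400400, with ratios of 3.40, 1.27 and 3.30 and a mean of 2.65 ± 1.20. Replicate 2 stood apart, its FA signal being 285 against 118 with water, while the other arrays showed 578 and 798 with FA and 55 and 81 with water. Os10g0538200 and Os09g0274800, both without a description in the sources used here, averaged 2.59 ± 0.94 and 2.46 ± 0.82 and were highest on replicate 1. The other loci of the set were Os01g0803900 (2.55 ± 0.66), Os11g0169700 (2.37 ± 0.33), Os01g0280200 (2.23 ± 0.27) and the non-coding transcript Os01g0261000 (2.26 ± 0.25). Their adjusted p lay between 0.00052 and 0.0014 (limma), and the lowest ratio on any array among these 4 was 1.89.

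**Figure D2:**
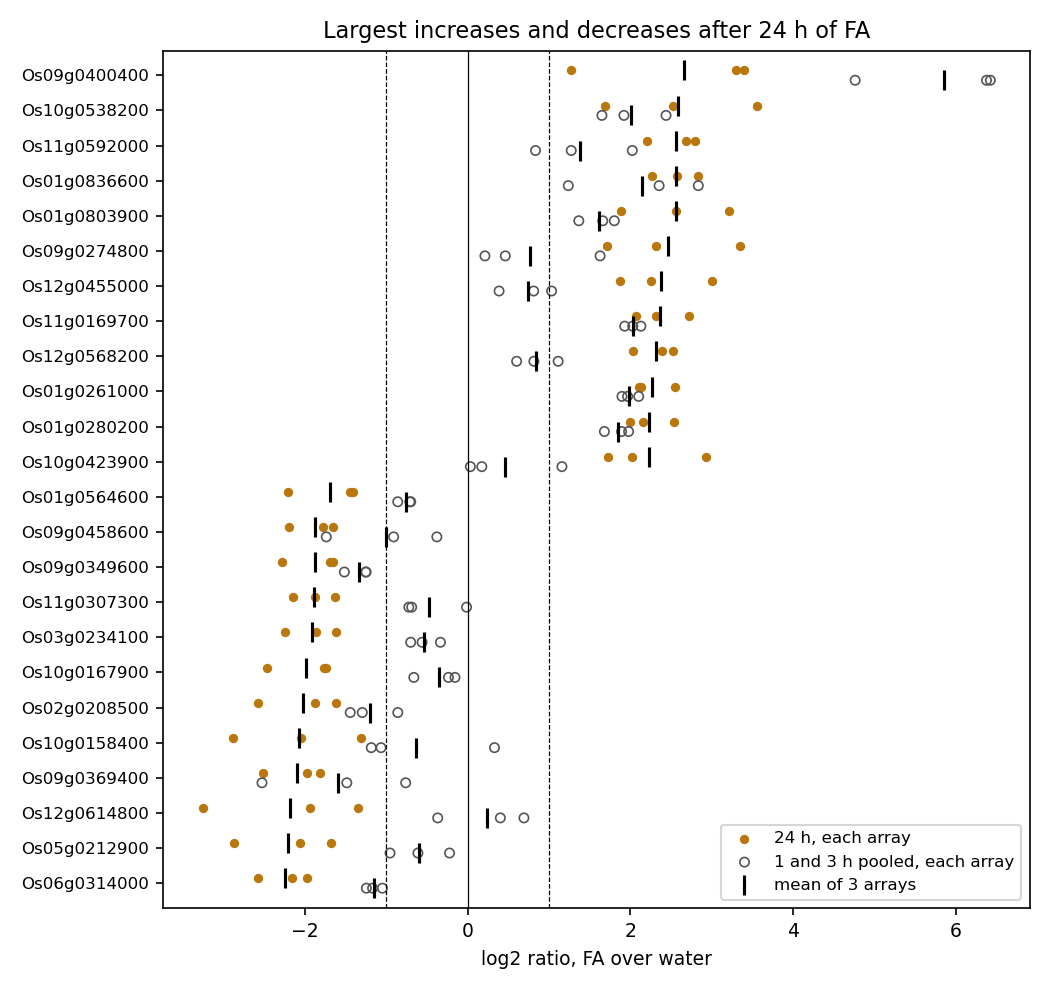
Log2 ratio of FA over water on each array for the 12 loci with the largest increases and the 12 with the largest decreases after 24 h (filled points, upper line of each locus) and for the same loci after short exposure (open points, lower line), with the mean as a tick and 2-fold as dashed lines. The 24 h points of each locus lie on 1 side of 0, and Os09g0400400 and Os12g0614800 show the widest spread.

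Some raised genes were measured above background in FA roots alone, since for 29 raised probes no array had a water signal well above background. For them only a bound can be given, which sets the FA signal against the lowest signal that counted as well above background or the probe's own water signal, whichever was higher, after normalization of the channels. Their calls rest on fitted ratios against signals at background, and the bounds themselves were not tested. Each bound compares means over the 3 arrays, so that the value of 1 array can lie below it. The cytochrome P450 gene Os07g0635200 was among them, with FA signals of 173, 132 and 278 and water signals of 11.9, 8.56 and 15.5. It was at least 7.93-fold higher with FA. Os10g0481500 and Os08g0352100, which encode conserved hypothetical proteins, were at least 9.34-fold and at least 7.98-fold higher. Os03g0267000 was at least 7.80-fold and Os09g0517200 at least 6.95-fold higher, both without a description. The first was uneven, with FA signals of 88.2, 139 and 489 and fitted ratios of 2.41, 2.96 and 5.11 on the 3 arrays. In the other direction Os10g0177300 had FA signals of 25.6, 23.2 and 14.2, not well above background, against water signals of 99.5, 147 and 141, and was at least 5.74-fold lower with FA. Os04g0127100 was at least 2.38-fold lower, with a water signal well above background on 1 of 3 arrays, and lost its call when background correction and dye normalization were changed together (normexp with loess).

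A chalcone synthase gene and a related polyketide synthase gene were among the 12 largest decreases measured in both channels on 3 arrays. Chalcone synthase makes the first flavonoid skeleton from a phenylpropanoid starter, and the gene Os05g0212900, described as chalcone synthase J, had ratios of -1.68, -2.06 and -2.87. FA signals of 3294, 3639 and 2411 lay below water signals of 10578, 15156 and 17666, with a mean ratio of -2.20 ± 0.61 (SD, n = 3, adjusted p = 0.0015, limma). Os10g0167900, a gene of the type III polyketide synthase family to which chalcone synthases belong, gave -1.74, -1.77 and -2.47 and averaged -1.99 ± 0.41. Os11g0307300, named after a maize protein that binds herbicide safeners, fell to FA signals of 2298, 2579 and 3130, against water signals of 10196, 8007 and 11543, a mean ratio of -1.89 ± 0.26.

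The other large decreases were spread over signalling, metabolism and genes of unknown function. The DUF827 family gene Os06g0314000 had the largest decrease among the loci measured on 3 arrays, -2.24 ± 0.31, with FA signals of 145, 112 and 105 against water signals of 646, 442 and 629. The trehalose-6-phosphate phosphatase gene Os09g0369400, whose enzyme makes trehalose from its phosphate, averaged -2.10 ± 0.37. Non-symbiotic hemoglobin 4 (Os03g0234100), an oxygen- and nitric oxide-binding protein, had FA signals of 193, 221 and 253 against water signals of 915, 808 and 779. Its ratios of -2.25, -1.87 and -1.62 were lowest on replicate 1, as in 20 of the lowered loci, and the mean was -1.91 ± 0.32. Protein kinase genes Os12g0614800 and Os09g0349600 averaged -2.18 ± 0.98 and -1.88 ± 0.35. The first of them varied most, at -1.34, -1.94 and -3.26, with FA signals of 52, 45 and 35. Os10g0158400 (-2.08 ± 0.79), Os02g0208500 (-2.03 ± 0.50), Os09g0458600 (-1.88 ± 0.29) and Os01g0564600 (-1.69 ± 0.45, under 2-fold with normexp and loess) had no described protein function in the sources used here.

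**Figure D3:**
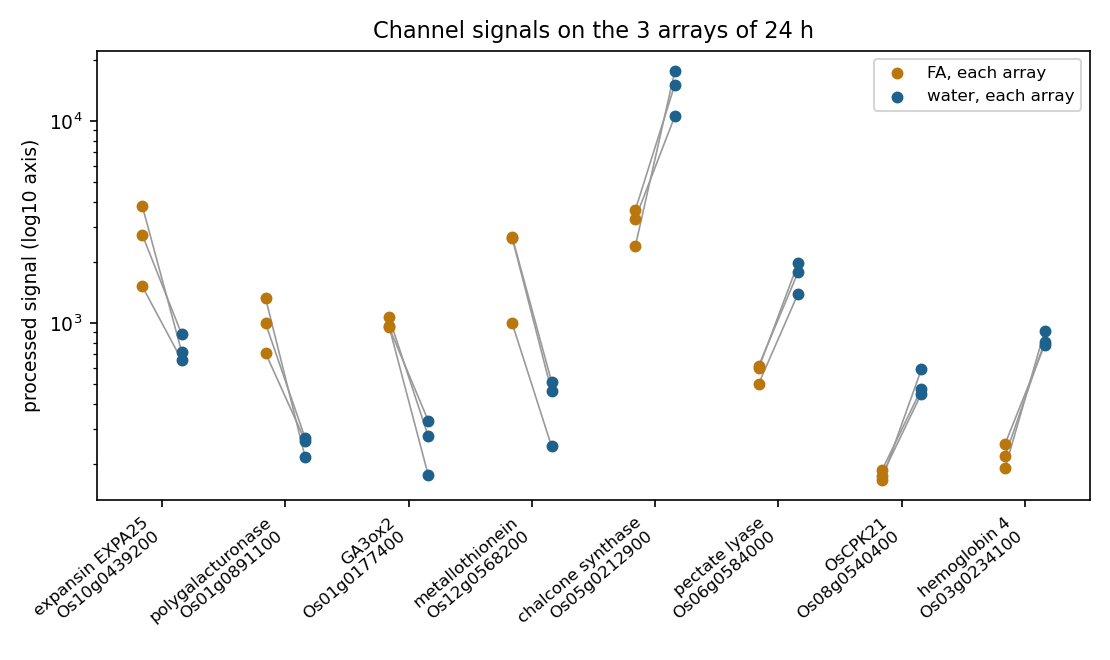
Processed signal on a log10 axis of 8 loci on the 3 arrays of 24 h, with FA on the left and water on the right of each pair and a line joining the channels of 1 array. The 4 loci on the left have FA signals above each of their water signals, and the 4 on the right have FA signals below each of them. The loci were picked from those called, so that this separation goes with the choice and tests nothing.

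Glutathione S-transferases (GSTs), which couple glutathione to reactive foreign compounds, were measured at 59 of 74 listed loci. FA raised 8 and lowered 2 of them, against 1.88% and 0.611% of all tested loci. At any size 31 rose and 11 fell, against 27.4% and 30.4% of all tested loci. The family median was 0.27 against -0.03 over all tested loci. The 8 raised loci all belong to the 38 tested members of the tau class (GSTU), whose median was 0.55, whereas the 13 tested members of the phi class (GSTF) had a median of 0.12 and 1 lowered member. GSTU44 (Os03g0643700) had FA signals of 103, 128 and 156 and water signals of 8.29, 17.8 and 10.5, none of them well above background, so that its ratios of 3.64, 2.85 and 3.90 give only a bound of at least 5.49-fold. GSTU26 (Os10g0530200) went the other way, at -1.18, -1.12 and -1.74 with a mean of -1.35 ± 0.34 (SD, n = 3, adjusted p = 0.0015, limma). The next genes were picked after their values were seen. GSTU49 (Os10g0530700) had FA signals of 243, 209.8 and 199.7 against water signals of 75.5, 67.5 and 76.1 and averaged 1.57 ± 0.16. GSTU22 (Os10g0525600) averaged 1.57 ± 0.40, GSTU47 (Os10g0481300) 1.48 ± 0.43 and GSTU19 (Os10g0527400) 1.32 ± 0.05 from 2 arrays. GSTF10 (Os01g0371500), the lowered phi member, was bright, with FA signals of 4076, 3652 and 4052 against water signals of 8303, 6869 and 9195, a mean of -1.04 ± 0.14.

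Many of these genes form a run on chromosome 10, where the list holds 24 loci with numbers between Os10g0525400 and Os10g0530900. Of 21 tested there, 5 were raised and GSTU26 was lowered, with a median of 0.46. The run was picked because it holds most of the called loci of the list, so these counts describe it and test nothing. GSTU15 (Os10g0525400), a raised locus named for this limit, had no water signal well above background. Only a bound of at least 2.20-fold can be given for it. After short exposure the same run had a median of 1.55. By the test of the difference 11 of its loci were called lower after 24 h, against 5.73% of all loci tested for it. The members of this run are close copies in part, and signal shared between their probes was not tested.

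**Figure D4:**
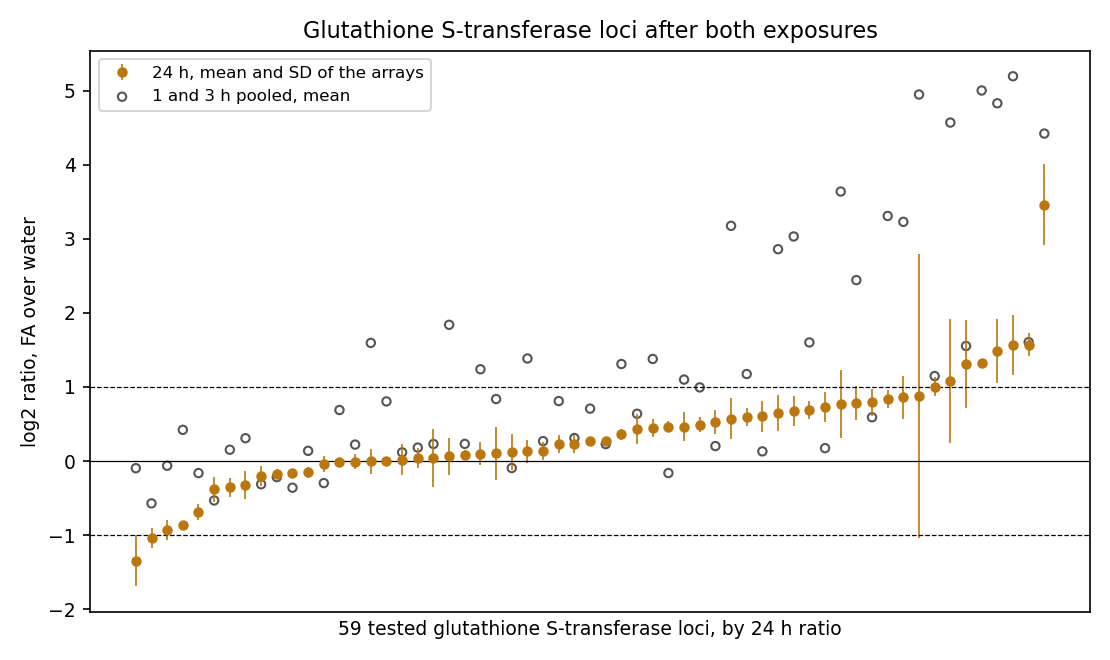
Log2 ratio of FA over water for 59 tested glutathione S-transferase loci ordered by their 24 h value (x axis), with the mean and SD of the 24 h arrays as filled points with bars and the mean after short exposure as open points. The 24 h values run from -1.35 to 3.46, and 18 loci were called lower after 24 h than after short exposure.

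Alternative oxidase, catalase and ascorbate peroxidase genes stayed within 2-fold after 24 h. Alternative oxidases pass electrons from ubiquinone to oxygen in mitochondria and so limit superoxide formation. Their ratios after 24 h averaged 0.22 ± 0.23 for AOX1d (Os02g0318100), -0.05 ± 0.10 for AOX1a (Os04g0600200) and -0.13 ± 0.33 for AOX1b (Os04g0600300), with adjusted p of 0.11, 0.59 and 0.44 (limma). Catalases, which split hydrogen peroxide in peroxisomes, fell. CatB (Os06g0727200) had FA signals of 11268, 11244 and 9208 against water signals of 16396, 16708 and 12902, and CatA (Os02g0115700) had 25685, 26998 and 24130 against 33374, 34971 and 28005. Their mean ratios were -0.53 ± 0.04 and -0.32 ± 0.09 (adjusted p = 0.0021 and 0.011, limma). Other probes gave -0.31 and -0.34 for CatB and -0.30 to -0.08 for CatA. Of 7 tested ascorbate peroxidase loci, whose enzymes reduce hydrogen peroxide with ascorbate, 4 fell and 1 rose. Over all tested loci 30.4% fell and 27.4% rose, and the list median was -0.20.

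In the transporter families most members were not called. Of all tested loci 1.88% were raised and 0.611% lowered, and 27.4% rose and 30.4% fell at any size. These shares also apply to the transport lists in the next paragraphs. ATP-binding cassette (ABC) transporters, pumps driven by ATP for many organic compounds, had 5 raised loci among 69 tested, with 22 rising and 23 falling at any size and a median of -0.03, the same as over all tested loci. Os01g0836600 rose most, at 2.83, 2.57 and 2.26, with FA signals of 882, 548 and 284 against water signals of 124, 92 and 59 and a mean of 2.56 ± 0.28 (SD, n = 3, adjusted p = 0.00052, limma). Among 92 tested loci of the major facilitator superfamily, which exchange sugars, nitrate and other small solutes, 2 were raised and 1 lowered. Os09g0371300 averaged 1.51 ± 0.63 with its lowest ratio, 0.89, on replicate 3, and Os02g0112600 averaged -1.40 ± 0.19. Proton-dependent oligopeptide transporters had 1 raised and 1 lowered locus among 48 tested. The raised gene, Os12g0638200, rested on ratios of 3.49, 2.29 and 0.53 and on a water signal that was well above background on 1 array, and its mean was 2.104 ± 1.49. Os10g0109900, the lowered gene, averaged -1.18 ± 0.48 and was not called without replicate 3. Os02g0112600 and Os10g0109900 were under 2-fold with normexp and loess.

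Single loci were lowered in 4 further transport lists. The ammonium transporter gene Os02g0550800 was lowered, with a mean of -1.86 ± 0.70, the single called locus among 7 tested family members. Its FA signals of 31, 40 and 39 were dim, and water signals were 116, 88 and 227. The sulfate transporter gene Os03g0196000, named ST1, averaged -1.15 ± 0.33 and was 1 lowered locus among 10 tested sulfate permeases, of which 4 rose and 4 fell at any size. It was not called without replicate 3. A urea transporter-like gene, Os10g0580400, the only member of the sodium symporter list, averaged -1.30 ± 0.21 with FA signals of 232, 268 and 462 against water signals of 663, 571 and 1139. Among 26 tested aquaporins, channels for water and small neutral solutes, the tonoplast-type gene Os01g0232000 was lowered at -1.45 ± 0.31, while 11 members rose and 4 fell at any size. With normexp and loess the ammonium, sulfate and aquaporin genes were under 2-fold.

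Other transport genes were raised. Os10g0572100, a member of the aromatic acid exporter list of 6 tested loci, had ratios of 1.70, 1.42 and 1.33 and a mean of 1.48 ± 0.19, and its other probe gave 1.38. Os01g0226600, a gene of the C4-dicarboxylate and malic acid transporter family, had FA signals of 369, 440 and 314 against water signals of 144, 136 and 134 and averaged 1.43 ± 0.24. The annexin-like gene Os08g0425700, from a family of calcium-dependent membrane-binding proteins, averaged 1.42 ± 0.30. In the glutamate-gated channel list Os06g0188600 averaged 1.61 ± 0.20, with a water signal well above background on 2 arrays, and was under 2-fold with normexp and loess. The nucleobase permease gene Os03g0694500 averaged 1.18 ± 0.61 and lost its call without replicate 1 and with normexp and loess. Each of these genes was the only raised locus of its list. The lists held 6 tested aromatic acid exporters, 5 dicarboxylate transporters, 5 annexins, 6 glutamate-gated channels and 12 nucleobase permeases. Their medians lay between -0.14 and 0.05. Amino acid and auxin permeases stayed within 2-fold, with 19 of 38 tested loci rising, 6 falling and a median of 0.12.

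Cell-wall genes changed in both directions. The counts of these and the next wall lists stand beside 1.88% of all tested loci raised and 0.611% lowered. At any size 27.4% of all tested loci rose and 30.4% fell. Expansins loosen the wall without cutting it, and 2 of 36 tested were raised. Os10g0439200, which encodes OsEXPA25, had FA signals of 3798, 2733 and 1520 against water signals of 719, 881 and 656, ratios of 2.40, 1.63 and 1.21 and a mean of 1.75 ± 0.60 (SD, n = 3, adjusted p = 0.0023, limma). Polygalacturonases cut pectin, and Os01g0891100, described as polygalacturonase C, was raised on each array at 2.61, 1.88 and 1.44 with a mean of 1.98 ± 0.59, the single raised locus among 20 tested. The pectate lyase gene Os06g0584000, whose enzyme also cuts pectin, was lowered, with FA signals of 614, 501 and 597 against water signals of 1788, 1400 and 1979 and a mean of -1.58 ± 0.13. It was 1 of 4 tested members of its list. Xyloglucan endotransglucosylases/hydrolases cut and rejoin xyloglucan chains. Os02g0280200 had FA signals of 2129, 2132 and 2099 against water signals of 5368, 4334 and 5937 and was lowered at -1.29 ± 0.24, and the adjacent Os02g0280300, picked after its values were seen, at -1.26 ± 0.28. Over the 20 tested members of this list 8 rose and 6 fell at any size.

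Glucanase and chitinase genes of the wall lists held some of the larger increases. Of 42 tested GH17 loci, the family of beta-1,3-glucanases that act on callose and fungal walls, 4 were raised and 1 lowered, and 16 rose and 4 fell at any size. Os07g0539900 had ratios of 1.51, 2.48 and 1.23, with water signals of 16, 18 and 47 of which 1 was well above background, and averaged 1.74 ± 0.66. It was under 2-fold with normexp and loess. Os01g0941200 went the other way at -1.09 ± 0.08. The class III chitinase gene Os01g0660200 (OsChib3a), whose product can attack fungal chitin, had FA signals of 375, 449 and 249 against water signals of 24, 122 and 75. Replicate 1 was far above the others, with ratios of 3.99, 1.88 and 1.73 and a mean of 2.53 ± 1.26 (adjusted p = 0.0056, limma), while 3 other probes of the gene gave 2.18, 2.41 and 2.36.

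Synthesis and structure of the wall moved within 2-fold for most members. Cellulose synthase and cellulose synthase-like genes ranged from -0.96 to 0.68, with 16 of 30 tested loci falling, 5 rising and a median of -0.19. The lowest of them, named for that value, was OsCSLD1 (Os10g0578200), a gene needed for root hair growth in rice. Arabinogalactan proteins, cell-surface proteoglycans, rose at 9 of 15 tested loci and fell at 1, with a median of 0.22. Leucine-rich repeat extensins, wall-linked signalling proteins, rose at 7 of 10 and fell at 1, with a median of 0.29. Single members were raised among xyloglucan fucosyltransferases (Os09g0458100, 1.36 ± 0.14) and GT8 glycosyltransferases (Os02g0745400, 1.01 ± 0.39), while 3 and 9 members of these lists fell. Os02g0745400 lost its call without replicate 1 or replicate 3 and with normexp and loess. The pectin acetylesterase gene Os01g0892500 was called lowered on the strength of replicate 3, with ratios of -0.39, -0.54 and -2.54 and a mean of -1.16 ± 1.20, and without that array, or with normexp and loess, it was not called.

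**Figure D5:**
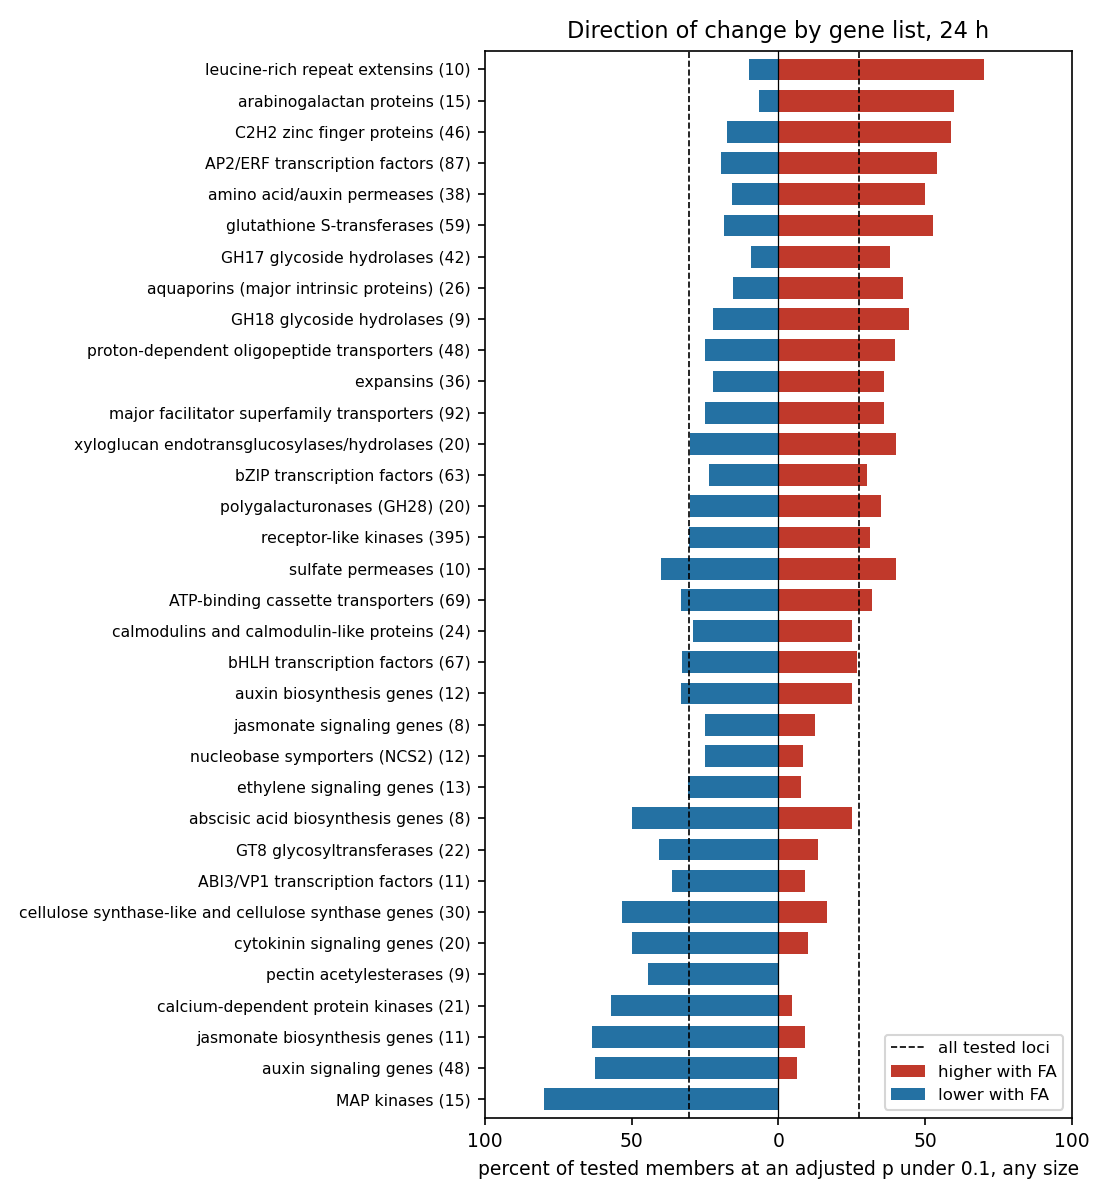
Percent of the tested members of each gene list with at least 8 tested loci (number in brackets) that had an adjusted p under 0.1 after 24 h, higher with FA to the right in red and lower to the left in blue. Dashed lines mark the 27.4% and 30.4% of all tested loci, and leucine-rich repeat extensins lie at the top and MAP kinases at the bottom.

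Of the hormone lists, gibberellin biosynthesis held the largest change. The counts of these lists stand beside 27.4% of all tested loci rising and 30.4% falling at any size, and 1.88% raised and 0.611% lowered. GA3ox2 (Os01g0177400) encodes the oxidase that makes bioactive gibberellin in the last step, and it had FA signals of 971, 1076 and 960 against water signals of 177, 275 and 328. Its ratios of 2.46, 1.97 and 1.55 averaged 1.99 ± 0.46 (SD, n = 3, adjusted p = 0.0013, limma), and its other probes gave 1.98 and 1.90. Of 5 tested loci in this list 3 rose, with a median of 0.51. GA20ox1 (Os03g0856700) and GA20ox2 (Os01g0883800), which feed that step and were picked after their values were seen, averaged 0.52 ± 0.10 and 0.51 ± 0.11. Among 5 tested gibberellin deactivation genes 3 rose and 1 fell, with the highest value, for which it is named here, at GA2ox7 (Os05g0560900, 0.72 ± 0.14).

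Ethylene and abscisic acid genes gave mixed directions. Ethylene biosynthesis genes rose at 6 of 7 tested loci, with a median of 0.45, and the means of the risen genes ran from 0.25 for OsACS6 (Os06g0130400) to 0.77 for OsACO4 (Os11g0186900), named as the ends of that range. The exception was OsACS5 (Os01g0192900), a gene for ACC synthase, the enzyme that makes the precursor of ethylene, which was lowered on each array, with a mean of -1.29 ± 0.28, and was under 2-fold with normexp and loess. OsACS2 (Os04g0578000), the risen gene at the list median and picked after its values were seen, had another probe at -0.04. In the abscisic acid biosynthesis list 2 loci rose and 4 fell of 8 tested. OsAAO3 (Os07g0281700), an aldehyde oxidase gene that the study lists under both auxin and abscisic acid biosynthesis, averaged -1.30 ± 0.27, with FA signals of 152, 176 and 120 against water signals of 332, 394 and 366, and was also under 2-fold with normexp and loess. OsNCED2 (Os12g0617400), for a dioxygenase that cleaves carotenoids ahead of abscisic acid and picked after its values were seen, had ratios of 0.71, 0.65 and 1.62 and a mean of 1.00 ± 0.54, just under the 2-fold limit.

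Auxin and cytokinin signalling genes fell more often than they rose, by less than 2-fold apart from 1 gene in each list. Of 48 tested auxin signalling genes 30 fell and 3 rose, with a median of -0.26. The lowered member was OsIAA14 (Os03g0797800), 1 of the AUX/IAA repressors of auxin response, at -0.78, -1.11 and -1.24 with a mean of -1.04 ± 0.23 (adjusted p = 0.0015, limma). Without replicate 3, or with normexp and loess, it was not called. Of 20 tested cytokinin signalling genes 10 fell and 2 rose, with a median of -0.15. OsRR10 (Os12g0139400), a type-A response regulator that restrains cytokinin signalling, had FA signals of 2181, 1900 and 1810 against water signals of 3585, 5008 and 4731 and averaged -1.17 ± 0.39. The related OsRR6 (Os04g0673300) and OsRR9 (Os11g0143300), named as the next lowest of the list, averaged -0.93 ± 0.31 and -0.78 ± 0.36.

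Jasmonate genes stayed within 2-fold after 24 h. In biosynthesis 7 of 11 tested loci fell and 1 rose, with a median of -0.20, and the lowest, named for that value, was OsJAR1;2 (Os05g0586200), at -0.60 ± 0.19. The enzyme joins jasmonate to isoleucine, which makes the active form. In signalling 2 of 8 fell and 1 rose, with a median of 0.02. The repressor genes OsJAZ1 (Os03g0180900) and OsJAZ4 (Os03g0402800), picked after their values were seen, averaged 0.07 ± 0.33 and -0.40 ± 0.11, and the other probes of OsJAZ4 gave -0.44 and 0.06. Ethylene signalling genes had a median of -0.08, with 4 of 13 falling and 1 rising. The shares falling in the jasmonate and ethylene signalling lists were near the 30.4% of all tested loci and are no result about these families.

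Receptor-like kinases rose and fell at shares near those of all tested loci, while calcium-dependent and MAP kinases fell more often than they rose. Of 395 tested receptor-like kinases 2 were raised and 7 lowered, against 1.88% and 0.611% of all tested loci. At any size 123 rose and 120 fell, against 27.4% and 30.4% of all tested loci, and the median was 0.00. Os12g0614800, given above, was the lowest. Os10g0533800 was called raised with a mean of 1.38 from ratios of 2.01, 0.10 and 2.01. Its water signal was well above background on replicate 2 alone, where the FA signal was 166 and the water signal 154, and the other arrays had water signals of 6.85 and 6.02. The call was lost with normexp and loess and with no signal filter. Calcium-dependent protein kinases, which join a calcium sensor to a kinase, fell at 12 of 21 tested loci and rose at 1, with a median of -0.25. OsCPK21 (Os08g0540400) was the lowered member, with FA signals of 176, 187 and 168 against water signals of 448, 472 and 591 and a mean of -1.501 ± 0.27 (SD, n = 3, adjusted p = 0.0010, limma). MAP kinases fell at 12 of 15 tested loci, with a median of -0.32 against -0.03 over all tested loci. Their means lay between -0.60 and 0.05, and the lowest measured on 3 arrays was MPK12 (Os05g0576800), picked after its values were seen, at -0.56 ± 0.12. The value of 0.05 was that of MPK6 (Os03g0285800), picked in the same way, and its other probes gave 0.26 to 0.37. Among 24 tested calmodulin and calmodulin-like genes OsCML31 (Os01g0955100) was raised at 1.00, 1.19 and 1.04, a mean of 1.08 ± 0.10, and was under 2-fold with normexp and loess.

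Transcription factor families differed in the sign of their medians. Their counts stand beside 27.4% of all tested loci rising and 30.4% falling at any size, and 1.88% raised and 0.611% lowered. AP2/ERF factors, which include regulators of stress and ethylene response, rose at 47 of 87 tested loci and fell at 17, with a median of 0.23. AP2/ERF-118 (Os07g0410300) was raised, with FA signals of 900, 1007 and 1858 against water signals of 328, 538 and 488 and a mean of 1.43 ± 0.51. AP2/ERF-72 (Os04g0572400), described as a CRT/DRE binding factor of the kind known from cold response, was lowered at -1.05 ± 0.50 and was not called without replicate 3 or with normexp and loess. C2H2 zinc finger genes rose at 27 of 46 tested loci and fell at 8, with a median of 0.19. The highest of them, named for that value, C2H2-29 (Os03g0610400), averaged 0.95 ± 0.23. Members of the ABI3/VP1 and bHLH families were lowered at 2 loci each, of 11 and 67 tested. ABI3/VP1-47 (Os11g0156000), of the B3 domain type, had FA signals of 480, 466 and 454 against water signals of 1207, 1204 and 1969 and averaged -1.61 ± 0.44. The bHLH gene Os07g0588400 (bHLH-105) averaged -1.43 ± 0.33. bZIP genes had a median of -0.01, with 19 of 63 rising and 15 falling.

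Genes that the study lists for root form stayed within 2-fold after 24 h. Of the crown root genes, which act where roots start from the stem base, OsCRL1 (Os03g0149000) had ratios of 0.23, 0.29 and 0.10 and a mean of 0.21 ± 0.10 (adjusted p = 0.048, limma). WOX11 (Os07g0684900) averaged 0.12 ± 0.27 on the probe used and -0.47 on another, and OsCRL4 (Os03g0666100) averaged -0.06 ± 0.02, with adjusted p of 0.39 and 0.47. Of 7 tested lateral root genes 5 fell and 1 rose, against 30.4% and 27.4% of all tested loci, with a median of -0.36. The gene that rose was OsCel9C (Os05g0212300, 0.25 ± 0.10). The others are auxin response factor or AUX/IAA genes, so that these counts are not separate from those of auxin signalling. OsIAA13 (Os03g0742900) was the lowest, at -0.64, -0.58 and -0.82, a mean of -0.68 ± 0.12, while its other probes gave -0.05, -0.66 and -0.17. Among 3 tested root hair genes OsCSLD1 (Os10g0578200) fell, with ratios of -0.94, -0.73 and -1.20 and a mean of -0.96 ± 0.23, just under the 2-fold limit. OsCel9C, OsIAA13 and OsCSLD1 were picked out after their values were seen.

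The difference between the exposures was tested on all 6 arrays as the 24 h ratio minus the short ratio, with the same limits. Of 28357 probes tested for it 710 had a higher ratio after 24 h (2.5%) and 1636 a lower one (5.77%). Of 19600 loci, 565 had a higher ratio after 24 h (2.88%) and 1123 a lower one (5.73%). Of the 351 loci raised at 24 h, 97 were called higher after 24 h than after short exposure and 40 lower, and 214 were not called. The raised loci had a median short ratio of 1.096, against 1.40 after 24 h. Of the 114 lowered loci, 36 were called lower after 24 h and 1 higher, and 77 were not called. Their median short ratio was -0.66, against -1.29 after 24 h. The 24 h values chose these loci, so these counts and medians describe them and test nothing.

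Genes with a higher ratio after 24 h included several named above. GA3ox2 (Os01g0177400) averaged 1.99 after 24 h against -0.64 after short exposure, a difference of 2.63 (adjusted p = 0.00031, limma). The dicarboxylate transporter gene Os01g0226600 averaged 1.43 against -1.18, a difference of 2.61 (adjusted p = 0.00014). Both had ratios on opposite sides of 0 in the exposures. The polygalacturonase gene Os01g0891100 (1.98 against 0.44), the expansin gene Os10g0439200 (1.75 against 0.26) and the transporter gene Os09g0371300 (1.51 against -0.14) were raised after 24 h and differed by 1.53, 1.49 and 1.65. The metallothionein gene Os12g0568200 differed by 1.47 and the barwin gene Os11g0592000 by 1.18.

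Genes with a lower ratio after 24 h included genes raised after both exposures and genes lowered after 24 h that had a short ratio above 0. Of the tau-class GSTs picked out above, GSTU22 (Os10g0525600) averaged 1.57 after 24 h against 5.19 after short exposure, GSTU47 (Os10g0481300) 1.48 against 4.83 and GSTU19 (Os10g0527400) 1.32 against 5.001, whereas GSTU49 (Os10g0530700) averaged 1.57 and 1.60 and was not called. OsCML31 (Os01g0955100) averaged 1.08 against 3.53 and AP2/ERF-118 (Os07g0410300) 1.43 against 3.31. The differences were -2.46 (adjusted p = 6.00e-05, limma) and -1.88 (adjusted p = 0.0013). Within the GST list 18 of 59 loci were called lower after 24 h, and in the jasmonate signalling list 5 of 8, against 5.73% of all loci. The second kind included OsCPK21 (Os08g0540400), at -1.501 after 24 h against 0.21 after short exposure, ABI3/VP1-47 (Os11g0156000), at -1.61 against 0.62, and OsIAA14 (Os03g0797800), at -1.04 against 0.61. Their differences were -1.71, -2.23 and -1.65, with adjusted p of 0.00024, 0.00066 and 0.00046 (limma).

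For other genes no difference between the exposures was called. The ABC transporter gene Os01g0836600 averaged 2.56 after 24 h and 2.14 after short exposure (adjusted p = 0.43), the exporter gene Os10g0572100 1.48 and 1.26 (adjusted p = 0.25) and the urea transporter-like gene Os10g0580400 -1.30 in both (adjusted p = 0.99, limma). OsAAO3 (Os07g0281700) averaged -1.30 and -1.22 (adjusted p = 0.80). A photosystem I subunit V gene, Os09g0481200, picked after its values were seen as a gene known from green tissue, had FA signals of 311, 323 and 394 against water signals of 95, 113 and 142 after 24 h and averaged 1.56 ± 0.12. The other probe of the locus gave 0.10, so that the increase was seen by 1 of its 2 probes. The short ratio of the first probe was 1.64, and the part that shoot tissue has in any result was not tested.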

How the data were processed

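Each array compared root RNA of FA-treated and water-treated rice seedlings. In the deposited scanner files the intensity of each channel was background-subtracted, detrended and dye-normalized by the authors' software, beside raw median intensities, other flags and the log10 ratio of red over green. The deposited value table holds log2 ratios of the processed intensities, which matched the scanner files and served as an alternative. The log10 ratios were turned to log2 here, 2007 control spots and spots flagged as outliers (1062, 652 and 236 on the 24 h arrays) were left out, and spots of a probe were averaged. Ratios of 24 h were tested against 0 with lmFit and eBayes of limma 3.58.1 (R 4.3.3), and the exposures against each other on 6 arrays. A locus took its probe with the highest mean signal. Where a channel was well above background on no array, a bound is given in place of the fitted ratio. There is no read depth on an array, and precision is limited by the number of arrays.

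Named genes were the 12 called loci with the largest change in each direction, of 1 sign and with both channels well above background on 3 arrays, the called locus with the largest increase and decrease in each list described, up to 5 called probes with the largest bound in each direction, and all members of lists of 5 or fewer that the study turns on. Tested probes had a processed signal of 100 or more in 1 channel of 1 array. Genes outside this rule are marked as picked after their values were seen. Gene lists and descriptions came from the study's supplementary tables, which describe 208 of the 465 called loci. One section of descriptions was misaligned with its loci and was not used. The authors' own fold changes and p-values were not used. Members, lists and tests were chosen with earlier results of these data known. The procedure was checked on simulated data. Alternatives were normexp (offset 50) with loess, centring, other signal filters, flagged spots kept, the methods' t-test, other limits, each replicate left out, and slide or replicate number as a block. Other software was the R package data.table (version 1.17.8) and, under Python 3.11.15, pandas 2.3.3, numpy 2.4.6 and matplotlib 3.10.9.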

Additional observations from a re-analysis of the deposited data

Results flagged for a closer look

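Of the 76 genes named by the rule, 37 had a called difference between the exposures (limma on 6 arrays, adjusted p under 0.1 and at least 2-fold). The ratio was higher after 24 h in 16 and lower in 21, against 2.88% and 5.73% of all 19600 loci tested for the difference. The rule chose genes largely by their 24 h values, so this count describes them and tests nothing. Differences are given as 24 h minus short on the log2 scale, and slide and exposure cannot be told apart in them.

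For 4 raised genes no 24 h array had a water signal above background, so that the fitted differences depend on signals at background and are no measured sizes. They were 3.68 for Os08g0352100, 3.32 for Os10g0481500, 1.59 for Os09g0517200 and 1.00 for the P450 gene Os07g0635200. In hormone and transport genes the differences were 2.63 for GA3ox2 (Os01g0177400), 2.61 for the dicarboxylate transporter gene Os01g0226600, 2.05 for the peptide transporter gene Os12g0638200, with a water signal above background on 1 array, and 1.65 for Os09g0371300. Wall genes gave 1.53 for the polygalacturonase gene Os01g0891100, 1.49 for the expansin gene Os10g0439200 and 1.24 for the GH17 gene Os07g0539900. The remaining ones were 1.77 for the MATH domain gene Os10g0423900, 1.69 for Os09g0274800, 1.64 for Os12g0455000, 1.47 for the metallothionein gene Os12g0568200 and 1.18 for the barwin gene Os11g0592000.

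Alternative oxidases had lower ratios after 24 h. AOX1b (Os04g0600300) averaged -0.13 after 24 h against 4.98 after short exposure, a difference of -5.10. AOX1a (Os04g0600200) differed by -2.17 and AOX1d (Os02g0318100) by -1.56. Os09g0400400, raised after both exposures, differed by -3.20, OsCML31 (Os01g0955100) by -2.46 and AP2/ERF-118 (Os07g0410300) by -1.88. WOX11 (Os07g0684900) averaged 0.12 against 1.27, a difference of -1.15.

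Genes lowered at 24 h also differed. The pectin acetylesterase gene Os01g0892500 gave -2.50, a value that rests in part on replicate 3 of 24 h. Kinase genes gave -2.42 for Os12g0614800 and -1.71 for OsCPK21 (Os08g0540400), and transcriptional regulators -2.23 for ABI3/VP1-47 (Os11g0156000) and -1.65 for OsIAA14 (Os03g0797800). Polyketide synthase genes differed by -1.64 for Os10g0167900 and -1.61 for Os05g0212900. Os10g0177300 had an FA signal above background on no 24 h array, so that its fitted difference of -1.59 is no measured size. The others were -1.44 for Os10g0158400, -1.41 for Os11g0307300, -1.40 for the transporter gene Os02g0112600, -1.38 for hemoglobin 4 (Os03g0234100), -1.25 for GSTU26 (Os10g0530200) and -1.09 for the DUF827 gene Os06g0314000.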

How the results depend on the processing

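The counts moved with the processing and the limits. Against 446 probes higher and 143 lower with FA, there were 264 and 78 with normexp and loess, 682 and 247 with no signal filter, 209 and 90 with the methods' t-test, and 223 and 77 with 2-fold on every array. For loci, against 351 and 114, these settings gave 209 and 61, 540 and 179, 169 and 68, and 178 and 61. Between exposures normexp left 294 probes with a higher ratio after 24 h, against 710. Leaving out each replicate gave 378 to 512 probes higher and 127 to 188 lower, 295 to 389 loci higher and 96 to 152 lower, and between exposures 653 to 787 and 1498 to 1689 probes. The cause of these shifts was not tested, and no locus was called in the opposite direction under any of them. Normexp called 206 of the 351 and 60 of the 114 loci. At any size, where 5104 loci rose and 5665 fell, 5678 rose and 4879 fell with normexp and loess. With arrays centred on their median 5718 rose and 4710 fell, so the more common direction depended on the scaling. Auxin signalling genes fell at 28 loci with normexp and 27 with centring, against 30, and jasmonate biosynthesis genes at 5 and 6, against 7. AP2/ERF genes rose at 51 and 49 loci, against 47.

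Of the 76 named genes, 18 lost their call with normexp, 29 with the t-test, 14 with 2-fold on every array, 8 with no filter, 2 without replicate 1 and 6 without replicate 3. With normexp these were Os01g0192900, Os01g0232000, Os01g0564600, Os01g0892500, Os01g0955100, Os02g0112600, Os02g0550800, Os02g0745400, Os03g0196000, Os03g0694500, Os03g0797800, Os04g0127100, Os04g0572400, Os06g0188600, Os07g0281700, Os07g0539900, Os10g0109900 and Os10g0533800. With the t-test they were Os01g0564600, Os01g0660200, Os01g0803900, Os01g0891100, Os01g0892500, Os02g0550800, Os02g0745400, Os03g0196000, Os03g0267000, Os03g0694500, Os04g0572400, Os05g0212900, Os07g0410300, Os07g0539900, Os08g0352100, Os09g0274800, Os09g0371300, Os09g0400400, Os10g0109900, Os10g0158400, Os10g0177300, Os10g0423900, Os10g0439200, Os10g0533800, Os10g0538200, Os11g0156000, Os12g0139400, Os12g0614800 and Os12g0638200. Without replicate 3 the means were -0.47 for Os01g0892500, -0.90 for Os10g0109900, -0.96 for Os03g0196000, -0.95 for Os03g0797800, -0.81 for Os04g0572400 and 0.84 for Os02g0745400, and without replicate 1 they were 0.93 for Os03g0694500 and 0.95 for Os02g0745400. Values near 0 that changed sign were AOX1b (Os04g0600300, 0.0019 with normexp) and, with 1 replicate left out, AOX1a (Os04g0600200, -0.093 to 0.0097), GA2ox3 (Os01g0757200, -0.00203 to 0.37), OsJAZ1 (Os03g0180900, -0.12 to 0.18) and MPK6 (Os03g0285800, -0.038 to 0.11). For MPK6 this holds for the probe used, and its other probes gave 0.26 to 0.37.

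Same-numbered arrays of the exposures correlated at -0.079, -0.013 and 0.14 in their deviations from the exposure means, and different-numbered ones between -0.24 and 0.26. Deviations from a mean of 3 arrays are not free of each other, so these values cannot settle whether replicate numbers pair the samples. With a replicate block 696 probes were higher and 1598 lower after 24 h, and with slide as a random block 714 and 1645. Dim probes limit the ratios, since 23 raised and 2 lowered loci had a channel above background on no array.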

Other observations

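Genes in this section were chosen after their values were seen, and they describe the 24 h arrays without a test of any group. Genes for long lipid chains, which feed suberin, cutin and wax in plant surfaces, were among those raised. A gene described as the CUT1 condensing enzyme, Os03g0220100, had ratios of 1.83 to 2.30 and a mean of 2.07 ± 0.24 (SD, n = 3, adjusted p = 0.00052, limma), against 0.08 after short exposure. The beta-ketoacyl-CoA synthase gene Os11g0591200 averaged 1.60 after 24 h and 0.47 after short exposure, and the P450 gene Os10g0486100, described as CYP86B1, 1.44 and 0.26. All 3 were called higher after 24 h than after short exposure. An acyltransferase gene, Os02g0114400, averaged 1.39 and 0.70, a difference that was not called.

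Genes known from defence and wall oxidation were also raised. A PR1 precursor gene, Os07g0129300, had ratios of 2.40, 2.33 and 3.34 and averaged 2.69 ± 0.56, against 0.29 after short exposure, with a water signal well above background on 2 arrays. The laccase gene Os01g0827300, whose enzyme oxidizes phenolics, averaged 2.06 ± 0.24 after 24 h against 0.48, and the peroxidase genes Os03g0235000 and Os06g0695300 averaged 1.38 and 1.14, the second being under 2-fold with normexp and loess. In the other direction the O-methyltransferase gene Os11g0306400 gave -1.98 and -2.69 on the 2 arrays that measured it, a mean of -2.34. The glucosyltransferase genes Os07g0201500 and Os04g0271700 averaged -1.59 and -1.43. The exposures had opposite signs in the EF-hand gene Os03g0769500, at -1.16 after 24 h against 2.26 after short exposure, and the acid phosphatase gene Os07g0681200, at -1.11 against 1.90, and both were under 2-fold after 24 h with normexp and loess.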
